A study of Homo sapiens with 12 samples.

Results

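The nuclear genes that encode the subunits of the mitochondrial respiratory chain were followed across 3 human ovarian cell lines. Members were the protein-coding genes whose GENCODE symbol names a subunit of complex I (NDUFA, NDUFB, NDUFC, NDUFS and NDUFV, with the assembly factors NDUFAF left out), complex II (SDHA to SDHD), complex III (UQCR and CYC1), complex IV (COX4I to COX8) or complex V (ATP5F1, ATP5M and ATP5P). This gave 90 members of 61533 gene IDs, of which 40 belong to complex I, 4 to complex II, 10 to complex III, 17 to complex IV and 19 to complex V, and 2 of them (NDUFC2-KCTD14 and ATP5MF-PTCD1) are read-through genes that join a subunit to the gene beside it. The rule used names only and no measured value. The complex of a member was also taken from its symbol alone. NDUFA4 and its paralogue NDUFA4L2 are thus counted with complex I for their names, and nothing else placed them there.

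Total RNA was sequenced from 4 replicates of each line, 12 libraries in all. T1074 is a line of ovarian epithelial cells immortalized with SV40 and was grown in Prigrow I medium. PEO-4, labelled as an ovarian cystadenocarcinoma, was grown in RPMI medium with glutamine. SKOV-3, labelled as a serous cystadenocarcinoma and called clear cell carcinoma in the study, was grown in McCoy's 5A. All 3 lines are labelled WT, received no treatment and were kept with fetal bovine serum and antibiotics. Each group is a single line in a medium of its own, so the line, the disease it stands for and the medium cannot be told apart. Nothing in the labels says that the replicates came from separate cultures, and the p-values then measure the spread between these libraries, which may be technical. Of a list of lineage markers, the T1074 libraries held KRT8 at 358 to 1036 CPM. They held EPCAM, CDH1 and PAX8 at no more than 0.137, 0.451 and 0.183 CPM. PEO-4 held these 3 genes at 95.9 CPM or more and VIM at no more than 0.151 CPM. The list also had KRT7, KRT18, KRT19 and WT1, which are not given here, nor are VIM in T1074 and the markers in SKOV-3. The values given therefore do not speak for or against a label. CPM is the count scaled to the library size with TMM factors and was used between lines. TPM, which also divides by transcript length, was used between genes of a library. The estimated counts of a library summed to between 19780836 and 55739060, and T1074 replicate 1 had the lowest sum. It also had the highest share of rRNA genes, 1.98% against 0.008% to 0.631% in the other libraries. This share includes mitochondrial rRNA and rRNA pseudogenes.

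The respiratory chain passes electrons from NADH (through complex I) and from succinate (through complex II) by way of ubiquinone to complex III, then by cytochrome c to complex IV and oxygen. Complexes I, III and IV pump protons across the inner mitochondrial membrane as they do so, and complex V, the ATP synthase, uses the returning protons to make ATP. A few subunits of complexes I, III, IV and V are encoded in mitochondrial DNA. All others, and the whole of complex II, are nuclear, and the members described here are these.

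Sequences are shown for the 3 places where the results turn on them. UQCRH, the hinge subunit of complex III, was nearly absent from SKOV-3, and its gene starts 81 bases from the start of LRRC41, which is read in the opposite direction. The bases between the 2 starts lie at chr1:46303617-46303697 (GRCh38, plus strand, RefSeq promoter table). The capitals mark a match to the ETS motif described below.
LRRC41-UQCRH interval: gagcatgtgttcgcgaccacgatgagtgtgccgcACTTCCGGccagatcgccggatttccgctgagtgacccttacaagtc

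UQCRHL is a gene elsewhere on chromosome 1 that is almost a copy of the UQCRH coding sequence. Of 276 coding bases, the stop codon included, 272 were the same (98.6%), and capitals mark the 4 that differ. The UQCRH coding sequence (GENCODE 44, ENST00000311672.10) spans chr1:46303767-46316584 on the plus strand, and that of UQCRHL (ENST00000483273.2) spans chr1:15807374-15807649 on the minus strand.
UQCRH: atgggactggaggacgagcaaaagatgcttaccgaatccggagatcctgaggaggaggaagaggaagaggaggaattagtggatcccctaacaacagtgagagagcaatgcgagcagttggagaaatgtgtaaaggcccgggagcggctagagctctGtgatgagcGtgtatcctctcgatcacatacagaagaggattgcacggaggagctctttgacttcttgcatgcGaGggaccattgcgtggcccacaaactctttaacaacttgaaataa
UQCRHL: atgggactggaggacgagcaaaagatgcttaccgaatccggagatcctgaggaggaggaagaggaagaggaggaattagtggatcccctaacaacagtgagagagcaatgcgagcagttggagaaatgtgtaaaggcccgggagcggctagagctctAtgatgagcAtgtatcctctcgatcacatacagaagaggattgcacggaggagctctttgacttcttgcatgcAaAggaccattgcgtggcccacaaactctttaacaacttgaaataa

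ATP5F1C, the gamma subunit that turns inside the catalytic head of complex V, had 2 main coding transcripts whose shares differed between all 3 lines. They share their first 891 coding bases and differ in 1 exon of 37 bases at chr10:7806974-7807010, which ENST00000356708.12 (10 exons, 298 residues) holds and ENST00000335698.4 (9 exons, 297 residues) skips. The last 60 coding bases of each are given with the bases after the shared part in capitals, stop codon included.
10 exons: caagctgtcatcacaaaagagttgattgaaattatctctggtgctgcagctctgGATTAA
9 exons: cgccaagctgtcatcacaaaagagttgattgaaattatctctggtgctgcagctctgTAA

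Taken over whole complexes, members took a larger part of the protein-coding counts in both carcinoma lines than in T1074, except for complex II. All members together made up 0.593% to 0.688% of the protein-coding estimated counts of a T1074 library, 0.878% to 0.976% of those of a PEO-4 library and 0.746% to 0.836% of those of a SKOV-3 library. The ranges of the 3 lines did not overlap. Complex III stood at 0.0672% to 0.0828% in T1074, 0.0986% to 0.114% in SKOV-3 and 0.138% to 0.148% in PEO-4. Complex II was highest in T1074, at 0.0420% to 0.0533%, followed by PEO-4 at 0.0341% to 0.0422%, a range that met that of T1074, and by SKOV-3 at 0.0287% to 0.0313%. These sums weigh the most abundant genes most. They are shares of reads and not of protein.

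**Figure D1:**
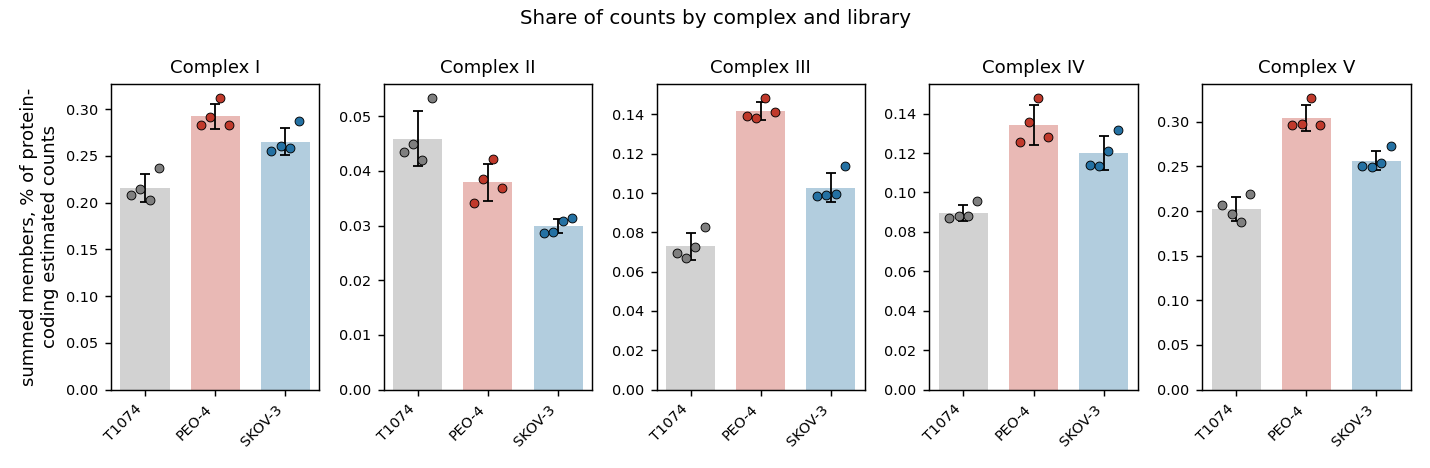
Summed estimated counts of the members of each complex as a percentage of all protein-coding counts (y axis, starting at 0, scaled for each complex) in the 3 lines (x axis); points are libraries, bars are means and error bars are SD (n = 4). Complexes I, III, IV and V were lowest in T1074, and complex II was highest there.

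Gene by gene, members moved in both directions. Of the 90 members, 85 passed the filter on low counts and were tested, and COX4I2, COX6A2, COX7A1, COX8C and ATP5MGL were not. In PEO-4 against T1074, 42 members were higher and 20 lower, beside 36.3% higher and 37.8% lower among all 19898 genes tested, so that 49.4% of tested members were higher. In SKOV-3 against T1074, 47 members (55.3%) were higher and 16 lower, beside 33.3% and 34.5% of all genes. Between the carcinoma lines, 26 members were higher in PEO-4 and 35 lower, beside 38.5% and 36.7% of all genes. This last split turned with the scaling, to 32 higher and 27 lower when the factors were computed on protein-coding genes alone and to 29 and 26 among genes with at least 10 counts in every library. The median log2 fold change over the tested members was 0.27 in PEO-4 and 0.49 in SKOV-3 against T1074, and -0.10 between the carcinoma lines, where the medians over all genes were -0.01, -0.03 and 0.05. All members are protein-coding, and protein-coding genes had shares of their own. In PEO-4 against SKOV-3, 34.4% of those tested were higher and 41.9% lower, with a median of -0.12. Members, at 30.6% and 41.2%, thus leaned toward SKOV-3 much as protein-coding genes did. In PEO-4 against T1074, 33.4% of protein-coding genes were higher and 43.3% lower, with a median of -0.16. The share of members higher was above that of protein-coding genes in both comparisons with T1074. With only the 8 libraries of PEO-4 and T1074 in the fit, 13 members were lower in PEO-4 in place of 20. The comparisons with T1074 share its 4 libraries, and their values are given side by side only.

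Changes of 2-fold or more were less common. In PEO-4 against T1074, 13 members were at least 2-fold higher and 4 at least 2-fold lower, beside 25.2% and 24.2% of all genes tested. The SKOV-3 counts were 13 and 7, beside 19.6% and 22.0%. Between the carcinoma lines, 10 members were at least 2-fold higher in PEO-4 and 9 lower, beside 27.3% and 23.6%.

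By pattern, 31 of the 85 tested members were higher in both carcinoma lines than in T1074, beside 17.5% of all genes tested, and 6 were lower in both, beside 20.3%, among them NDUFB6, NDUFB8, SDHA, UQCR10 and ATP5MF-PTCD1. Both comparisons use the T1074 libraries, so that their calls are not independent. Another 6 were higher in PEO-4 and lower in SKOV-3 (NDUFA2, NDUFA7, NDUFV3, UQCRH, UQCRHL and ATP5MK), beside 6.09% of all genes. UQCRH and UQCRHL passed the filter on low counts only through T1074 and PEO-4, and COX7B2 only through SKOV-3. Their calls in comparisons with SKOV-3 are included in the counts but are not taken as support. COX6B2 passed this filter mainly through T1074 and SKOV-3, and its calls in comparisons with PEO-4 are treated alike. The PEO-4 call of NDUFA2 (0.43) was lost with scaling by library size only (0.28), and the SKOV-3 call of NDUFA7 (-0.46) with no filter on low counts (-0.36). A further 6 were lower in PEO-4 and higher in SKOV-3 (NDUFA11, NDUFC1, SDHB, UQCR11, UQCRC1 and COX4I1), beside 7.87%. The test was passed in all 3 comparisons by 35 members, beside 38.2% of all genes, and in none by 7, beside 7.37% (NDUFA3, NDUFA4, NDUFB2, SDHC, COX8A, ATP5PF and ATP5PO).

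**Figure D2:**
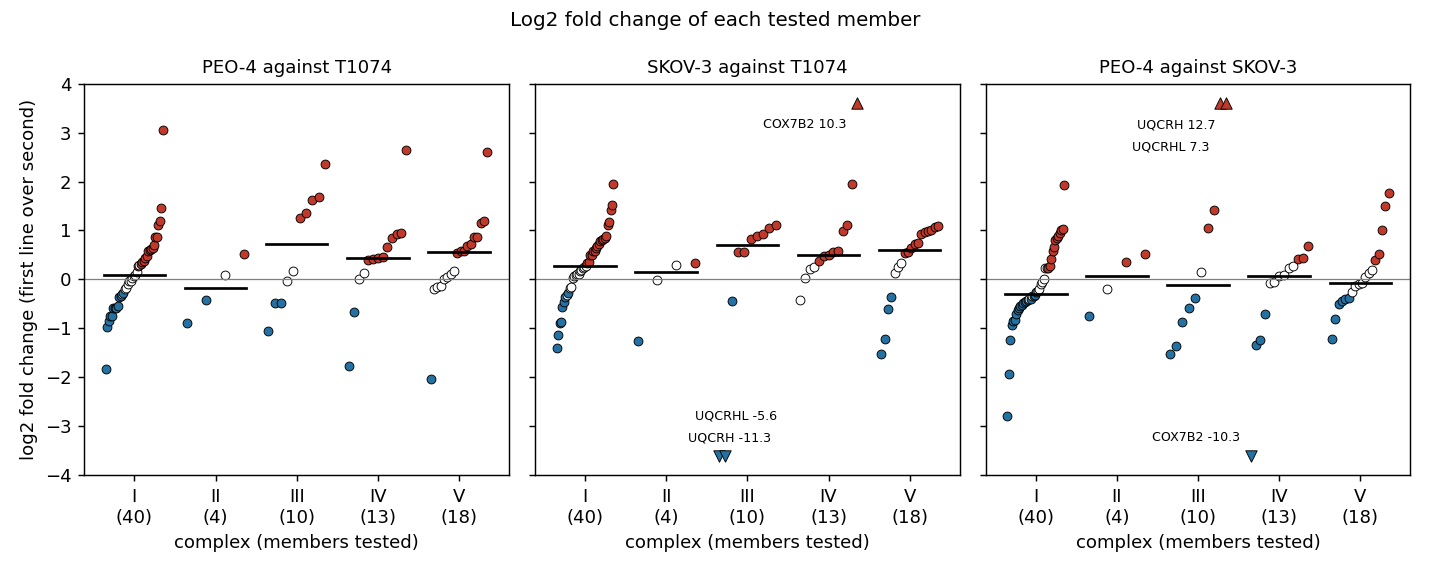
Log2 fold change (y axis) of each tested member by complex (x axis, with the number tested), 1 panel for each comparison; red points were higher and blue points lower at an adjusted p under 0.05, white points did not pass, and black bars are medians. Triangles at the edge are members beyond the axis, with their fitted log2 fold changes, which for these genes depend on the prior count.

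Complex I, the NADH dehydrogenase, had members that moved in both directions. In PEO-4 against T1074, 17 of its 40 members were higher and 12 lower, with a median of 0.08. Scaling by library size only turned this median to -0.08 and left 11 of its members higher. In SKOV-3, 19 (47.5%) were higher and 8 (20.0%) lower, with a median of 0.27, beside 33.3% and 34.5% of all genes. NDUFB9, an accessory subunit of the membrane arm, stood at 39.5, 37.1, 40.7 and 45.7 CPM in T1074, 331, 326, 349 and 338 CPM in PEO-4 and 90.3, 90.5, 78.4 and 95.5 CPM in the SKOV-3 libraries. The lines did not overlap, and the rise was 8.25-fold in PEO-4 (log2 fold change 3.04 ± 0.10 SE, adjusted p = 8.47e-12) and 2.17-fold in SKOV-3 (adjusted p = 1.47e-07). By TPM it led complex I in PEO-4, at 182 ± 27.8 (SD, n = 4), whereas NDUFA13 led in T1074 at 116 ± 28.5 and NDUFA11 in SKOV-3 at 241 ± 35.4.

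NDUFA11, which helps hold the membrane arm together, went opposite ways in the carcinoma lines. Its libraries stood at 62.3, 69.5, 67.7 and 90.3 CPM in T1074, 38.1, 41.5, 41.2 and 40.6 CPM in PEO-4 and 261, 294, 287 and 281 CPM in SKOV-3. Every PEO-4 library was below and every SKOV-3 library above all of T1074. Between the carcinoma lines the difference was 6.95-fold (log2 fold change -2.80 ± 0.12 SE, adjusted p = 7.58e-11), the largest among complex I members in that comparison. Another protein-coding gene on the same strand overlaps NDUFA11 over 12512 bases, introns included, so reads there could be divided by estimate. NDUFA6, an accessory subunit of the LYR family, was lower in PEO-4, at 10.7, 14.1, 13.7 and 11.8 CPM, than in the other lines. T1074 held it at 39.7 to 47.3 CPM and SKOV-3 at 44.8 to 53.7 CPM. Its log2 fold change against T1074 was -1.83 ± 0.11 (SE) in PEO-4 and 0.10 ± 0.11 in SKOV-3, where the adjusted p was 0.42, and -1.93 ± 0.11 in PEO-4 against SKOV-3 (adjusted p = 2.06e-09).

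Of the core subunits that carry out the redox reaction, NDUFV1, which binds NADH and FMN, was higher in both carcinoma lines. It stood at 57.3 ± 10.7 CPM (mean ± SD, n = 4) in T1074, 132 ± 7.47 CPM in PEO-4 and 98.5 ± 6.50 CPM in SKOV-3. NDUFA10, an accessory subunit, went the same way, from 56.3 ± 7.34 CPM to 154 ± 6.21 CPM in PEO-4 and 84.0 ± 2.24 CPM in SKOV-3. The core subunits NDUFS1, a carrier of iron-sulfur clusters, NDUFS3 and NDUFS8, another such carrier, were also higher in both, by 0.27, 0.86 and 0.63 on the log2 scale in PEO-4 and by 0.72, 0.58 and 0.82 in SKOV-3. NDUFS7 was lower in PEO-4 (-0.75) and did not pass in SKOV-3 (0.11), and NDUFV2 was higher in SKOV-3 (0.50) and did not pass in PEO-4 (0.02). Apart from NDUFA11, the members that passed with a 2-fold change from T1074 in SKOV-3 and less in PEO-4 were NDUFS5 (log2 fold change 1.42 ± 0.17), NDUFB4 (1.17 ± 0.15), NDUFB8 (-1.39 ± 0.15) and NDUFA5 (-1.14 ± 0.11), all of them accessory subunits, against 0.87, 0.70, -0.59 and -0.19 in PEO-4, of which the last did not pass. NDUFA2 and NDUFA7 were higher in PEO-4 than in SKOV-3 by 1.01 ± 0.13 and 1.03 ± 0.12 on the log2 scale. NDUFA3, NDUFA4 and NDUFB2 passed in no comparison of the main fit, which used TMM factors and all 12 libraries. With scaling by library size only, NDUFA4 was called lower in SKOV-3 than in T1074 (-0.52, adjusted p = 0.0222). With the libraries of the 2 lines alone it was called higher in PEO-4 than in SKOV-3 (0.24). Without T1074 replicate 4, NDUFB2 was called higher in SKOV-3 (0.33, adjusted p = 0.0176), and without T1074 replicate 1 or 3, NDUFA4 was called lower there (-0.41 in both, adjusted p = 0.0474 and 0.0377); over the refits the adjusted p of NDUFB2 ranged up to 0.867 and that of NDUFA4 up to 0.539.

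NDUFA4L2, a paralogue of NDUFA4 that is known as a hypoxia-induced gene, was scarce, at 3.15 ± 0.896 CPM in T1074, 1.60 ± 0.199 CPM in PEO-4 and 3.78 ± 0.295 CPM in SKOV-3. It was lower in PEO-4 than in T1074 by 0.98 ± 0.22 on the log2 scale (adjusted p = 8.77e-04), and its SKOV-3 value against T1074 was 0.26 ± 0.21 (adjusted p = 0.283). The read-through gene NDUFC2-KCTD14, whose reads can come from NDUFC2 or KCTD14, was at 0.206 to 1.66 CPM in T1074, 1.14 to 2.43 CPM in PEO-4 and 2.18 to 2.90 CPM in SKOV-3. Its call in PEO-4 (1.12 ± 0.45, adjusted p = 0.0366) was lost without T1074 replicate 2 or 3 or without PEO-4 replicate 1 or 2, where its log2 fold change was 0.74, 0.94, 1.09 and 1.14.

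Complex II, which oxidizes succinate and belongs also to the citric acid cycle, has 4 members that each behaved in a way of their own. SDHA, the flavoprotein, was at 147, 164, 147 and 214 CPM in T1074, 78.0, 99.6, 97.3 and 85.5 CPM in PEO-4 and 74.0, 67.7, 72.9 and 66.5 CPM in SKOV-3 libraries. T1074 lay above both carcinoma lines in every library, and the log2 fold change was -0.90 ± 0.13 (SE) in PEO-4 (adjusted p = 1.87e-05) and -1.26 ± 0.13 in SKOV-3 (adjusted p = 8.79e-07). SDHA has 4 pseudogenes that took 10.1% to 25.7% of the reads given to it and to them, with a mean of 21.6% in PEO-4, 13.5% in SKOV-3 and 11.4% in T1074. No other member had more than 7.43% in pseudogenes.

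SDHB, the iron-sulfur subunit, stood at 37.6 ± 7.12 CPM in T1074, 28.1 ± 0.881 CPM in PEO-4 and 47.3 ± 2.22 CPM in SKOV-3. It was lower in PEO-4 than in SKOV-3 by 0.75 ± 0.12 on the log2 scale (adjusted p = 5.21e-05). Its calls against T1074 (PEO-4 at -0.42 and SKOV-3 at 0.33) were both lost in some fits. The first was lost without PEO-4 replicate 1, 2 or 4 (-0.30, -0.31 and -0.29) and with the libraries of the 2 lines alone (-0.31). The second was lost without T1074 replicate 1 or 2 (0.26 and 0.25), with the 2 lines alone (0.32) and with scaling by library size only (0.14). SDHC, a membrane anchor, was at 43.5 ± 11.7 CPM in T1074, 46.3 ± 5.40 CPM in PEO-4 and 53.2 ± 3.52 CPM in SKOV-3. It passed in no comparison of the main fit. Without T1074 replicate 4 it was called higher in SKOV-3 (0.49, adjusted p = 0.00313, with values of up to 0.641 over the refits). The same call was made with no filter on low counts (0.39, adjusted p = 0.0465). SDHD, the other anchor, was higher in PEO-4 by 0.52 ± 0.09 (adjusted p = 1.37e-04) and differed by -0.01 ± 0.09 in SKOV-3 (adjusted p = 0.949).

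Complex III, the cytochrome bc1 complex, held the sharpest contrast among the members. UQCRH had estimated counts of 652, 1432, 1215 and 1554 in the T1074 libraries, 2830 to 4238 in PEO-4, and 1, 0, 0 and 1 in SKOV-3. On the CPM scale the T1074 libraries stood at 32.7, 32.8, 29.7 and 38.6 and the PEO-4 libraries at 82.8, 78.6, 91.0 and 90.7. UQCRH was thus among the more abundant transcripts of complex III in T1074 and PEO-4, second by TPM in both, and all but missing in SKOV-3. With 2 counts in SKOV-3, the ratio of T1074 to SKOV-3 was 3337, with an exact 95% interval of 923 to 27560, which covers counting error only, and the ratio of PEO-4 to SKOV-3 was 8578 (2374 to 70840). The fitted log2 fold changes of -11.33 and 12.69 depend on the prior count. UQCRH passed the filter through the lines where it is high, so its tests against SKOV-3 are not given. UQCRH was higher in PEO-4 than in T1074 by 1.36 ± 0.12 (adjusted p = 1.70e-07).

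The near-copy UQCRHL moved alongside, with 1.25 to 2.06 CPM in T1074, 4.82 to 5.58 CPM in PEO-4 and 0 to 0.0642 CPM in SKOV-3, where the 4 libraries held 6 counts in all. Given the 4 differing bases among 276, reads of the coding sequence could be divided between the genes by estimate, and the level of UQCRHL is uncertain. The 2 and 6 counts of UQCRH and UQCRHL are all that both genes held in the SKOV-3 libraries.

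Next to UQCRH, LRRC41 (an adaptor of ubiquitin ligases), which starts on the far side of the 81 bases printed above, was also low in SKOV-3. It stood at 41.2 to 84.9 CPM in T1074, 89.2 to 101 CPM in PEO-4 and 1.86 to 4.49 CPM in SKOV-3, and the log2 fold change of SKOV-3 against T1074 was -4.20 ± 0.28 (SE, adjusted p = 8.38e-09). LRRC41 was not at 0, with 90.6 to 209.7 estimated counts in each SKOV-3 library. Genes a little further out did not fall alike. POMGNT1, a glycosyltransferase gene beyond RAD54L, stood at 61.0 to 75.4 CPM and NSUN4, a methyltransferase gene next on the other side, at 44.3 to 54.6 CPM in SKOV-3, above T1074 by 0.33 ± 0.09 and 0.40 ± 0.14 on the log2 scale. RAD54L, which overlaps LRRC41, was lower in both carcinoma lines (-1.999 in PEO-4 and -2.21 in SKOV-3). The median log2 fold change in SKOV-3 over the 95 protein-coding genes tested within 5 Mb of UQCRH was 0.29. These 4 neighbours were chosen after the values of UQCRH were seen.

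**Figure D3:**
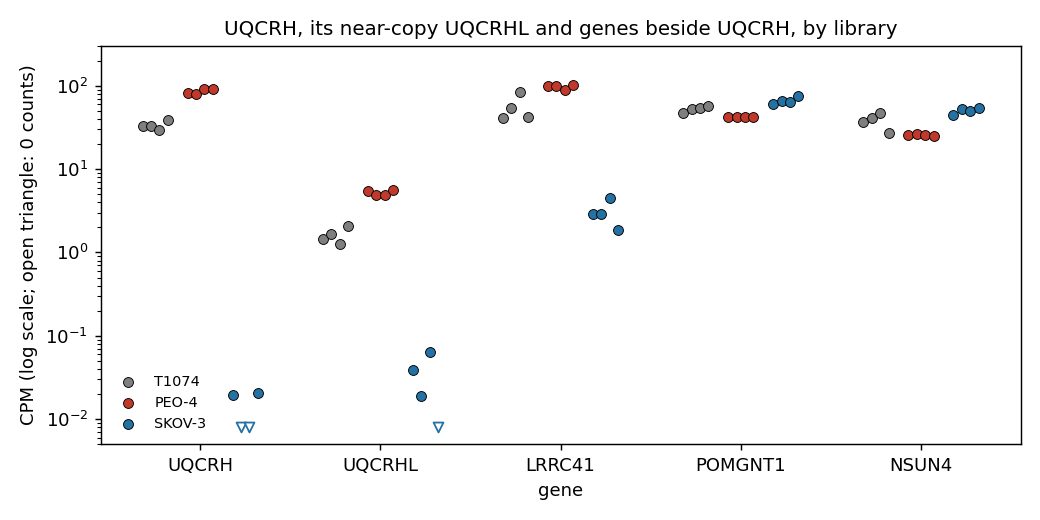
CPM (y axis, log scale) of UQCRH, its near-copy UQCRHL and 3 genes beside UQCRH (x axis) in each library, colored by line; open triangles are libraries with 0 counts. SKOV-3 is near the bottom for UQCRH and UQCRHL and at 1.86 to 4.49 CPM for LRRC41, while POMGNT1 and NSUN4 stay at 44.3 CPM or more in that line.

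Of the other complex III members, UQCRHL and UQCR10 were also lower in SKOV-3 than in T1074 and 7 were higher. Of all genes, 34.5% were lower and 33.3% higher there. CYC1, cytochrome c1, was at 65.1, 57.8, 70.6 and 73.0 CPM in T1074, 356, 329, 325 and 354 CPM in PEO-4 and 128, 118, 122 and 142 CPM in the SKOV-3 libraries. No library of a line met another line, and the log2 fold change was 2.36 ± 0.11 (SE) in PEO-4 (adjusted p = 1.26e-10) and 0.94 ± 0.10 in SKOV-3 (adjusted p = 1.52e-06). UQCRB, a small subunit at the ubiquinone site, was higher by 1.61 ± 0.15 in PEO-4 and 0.56 ± 0.15 in SKOV-3, where the libraries overlapped T1074. UQCRC2, a core protein, was higher by 1.26 ± 0.11 and 1.11 ± 0.11, from 72.2 ± 10.9 CPM in T1074 to 173 ± 10.1 CPM in PEO-4 and 156 ± 11.2 CPM in SKOV-3. Its partner UQCRC1 was higher only in SKOV-3 (1.05 ± 0.15, adjusted p = 2.19e-05) and called lower in PEO-4 (-0.47 ± 0.15, adjusted p = 0.0104), a call lost without PEO-4 replicate 1, 3 or 4 (-0.34, -0.36 and -0.32). UQCR11 behaved likewise, with 0.89 ± 0.16 in SKOV-3 and -0.48 ± 0.16 in PEO-4, the latter lost without T1074 replicate 4 or any single PEO-4 library (-0.29, -0.31, -0.35, -0.40 and -0.37) and at -0.06 with length-scaled TPM counts. UQCR10 was lower in both, by 1.04 ± 0.11 in PEO-4 and 0.45 ± 0.11 in SKOV-3.

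Complex IV, cytochrome c oxidase, has nuclear subunits with tissue-specific paralogues, and these largely kept to the ubiquitous form. COX6C, an accessory subunit, was at 13.5, 13.0, 17.4 and 28.6 CPM in T1074, 104, 112, 126 and 112 CPM in PEO-4 and 58.8, 69.8, 71.7 and 80.7 CPM in SKOV-3. The 3 lines did not overlap, with a log2 fold change of 2.64 ± 0.21 (SE) in PEO-4 (adjusted p = 5.30e-08) and 1.95 ± 0.21 in SKOV-3 (adjusted p = 1.36e-06). COX5B was higher by 0.94 ± 0.11 and 0.98 ± 0.11. COX4I1, the regulatory subunit that binds ATP, was at 73.7 to 121 CPM in T1074, 57.5 to 64.7 CPM in PEO-4 and 142 to 146 CPM in SKOV-3. Its log2 fold changes were -0.66 ± 0.13 and 0.58 ± 0.13. Of the 13 members of complex IV tested, 9 were higher and 2 lower in PEO-4, COX6B2 among the lower, beside 36.3% and 37.8% of all genes. In SKOV-3 9 were higher, COX7B2 among them, beside 33.3% of all genes. These calls of COX6B2 and COX7B2 are counted but not taken as support. With scaling by library size only, 5 of the 13 were higher in PEO-4.

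Of the paralogues, COX4I2, the lung form, had reads in 1 library only (0.0216 CPM), COX6A2 and COX8C, the muscle and testis forms, were at 0 in all 12, and COX7A1, the muscle form, reached at most 0.156 CPM in a SKOV-3 library. A floor of 3 counts was 0.0576 to 0.150 CPM depending on the library, and lower levels could not be seen. COX6B2, the testis form of COX6B1, was at 0.201 to 0.441 CPM in T1074, against 32.2 to 51.0 CPM for COX6B1. In PEO-4 it was at 0.0432 to 0.293 CPM, a range that met that of T1074. Its estimated counts in the PEO-4 libraries were 9.95, 3, 3 and 2, near the floor. COX6B2 passed the filter mainly through T1074 and SKOV-3, so its tests against PEO-4 are not given. COX6A1 (0.44 ± 0.13), COX6B1 (0.67 ± 0.13), COX7A2 (0.46 ± 0.14) and COX7A2L (0.40 ± 0.11), the last a factor that joins complexes III and IV, were higher in PEO-4. Of these, COX7A2L (1.11 ± 0.11) and COX7A2 (0.38 ± 0.14) were also higher in SKOV-3, the second not without T1074 replicate 2 or SKOV-3 replicate 3 (0.32 and 0.35) or with scaling by library size only (0.19). COX6A1 was called higher in SKOV-3 without T1074 replicate 3 (0.32) and COX6B1 without T1074 replicate 4 (0.43). The PEO-4 calls of COX6A1, COX7A2 and COX7A2L were lost with scaling by library size only (0.28, 0.32 and 0.23). COX8A passed in no comparison of the main fit. Without PEO-4 replicate 3 it was called higher in PEO-4 than in T1074 (0.28, adjusted p = 0.0397, with values of up to 0.850 over the refits). The same call was made with scaling on protein-coding genes (0.25) and with at least 10 counts required in every library (0.28). Scaling on protein-coding genes also called it higher in PEO-4 than in SKOV-3 (0.24).

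COX7B2, a paralogue of COX7B known from testis, was read in SKOV-3 alone. The SKOV-3 libraries had 192, 194, 193 and 168 counts, and the 8 libraries of T1074 and PEO-4 had 0. At a floor of 3 counts per library, COX7B2 was at least 40.95-fold higher in SKOV-3 than in T1074 and at least 51.95-fold higher than in PEO-4. COX7B itself was at 24.6 to 35.5 CPM in T1074, 50.4 to 71.5 CPM in PEO-4 and 34.0 to 49.7 CPM in SKOV-3, so that COX7B2, at 3.44 to 4.13 CPM, was the scarcer gene of the pair there. The 250 bases before its start (chr4:46909246-46909495, GRCh38, minus strand, RefSeq promoter table) are shown because the gene is on in 1 line only, and hold none of the motifs searched.
COX7B2: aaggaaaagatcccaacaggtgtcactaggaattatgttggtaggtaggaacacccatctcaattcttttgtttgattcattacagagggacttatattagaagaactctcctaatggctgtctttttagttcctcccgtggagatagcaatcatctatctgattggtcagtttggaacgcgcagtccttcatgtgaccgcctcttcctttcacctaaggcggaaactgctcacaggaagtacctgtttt

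Complex V held mostly higher members. In PEO-4 against T1074, 10 of its 18 tested members were higher and 1 lower, beside 36.3% and 37.8% of all genes. In SKOV-3 11 were higher and 4 lower, beside 33.3% and 34.5%. The medians were 0.56 and 0.60. Without T1074 replicate 3, 2 were lower in PEO-4, ATP5MJ (-0.21) being the added one. The catalytic subunits ATP5F1A and ATP5F1B, the most abundant members by CPM in T1074, went from 271 ± 25.9 and 419 ± 22.8 CPM in T1074 to 432 ± 13.4 and 630 ± 12.3 CPM in PEO-4 and 453 ± 18.2 and 606 ± 25.5 CPM in SKOV-3. Their log2 fold changes were 0.67 and 0.59 in PEO-4 and 0.74 and 0.53 in SKOV-3. ATP5ME, a small membrane subunit that links 2 synthases into a dimer, was at 9.48, 9.78, 7.25 and 16.6 CPM in T1074, 62.4, 62.2, 71.8 and 64.4 CPM in PEO-4 and 22.4, 21.2, 24.3 and 24.7 CPM in SKOV-3. The lines did not overlap, and the rise was 6.04-fold in PEO-4 (2.59 ± 0.20, adjusted p = 2.74e-08) and 2.14-fold in SKOV-3 (adjusted p = 1.39e-04). ATP5ME overlaps MYL5, on the other strand, by 751 bases, and whether the counting used strand is not given in the sources used here.

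ATP5PD, of the peripheral stalk, was higher by 1.20 ± 0.10 and 1.01 ± 0.10 in PEO-4 and SKOV-3. ATP5MK, a small subunit of the membrane part, went from 20.8 to 37.4 CPM in T1074 to 54.6 to 67.2 CPM in PEO-4 (1.16 ± 0.18) and 14.6 to 19.8 CPM in SKOV-3 (-0.60 ± 0.18). ATP5MJ was higher in SKOV-3 (1.08 ± 0.11) and ATP5MF lower there (-1.21 ± 0.15). The paralogues ATP5MC1, ATP5MC2 and ATP5MC3 encode the same mature c subunit of the rotor ring. ATP5MC3 was higher in SKOV-3 than in T1074 by 0.65 ± 0.13, with 88.6 ± 2.24 against 56.5 ± 9.16 CPM, and ATP5MC1 by 0.56 ± 0.15 (0.36 and 0.39, no longer passing, with scaling by library size only and with length-scaled TPM counts). ATP5MC2 was called lower (-0.35 ± 0.14, adjusted p = 0.0323), a call lost without any 1 of 10 libraries, among them each PEO-4 library (-0.29 or -0.30). This call was also lost with another tool, DESeq2 (-0.31), with no filter on low counts (-0.25) and with the 2 lines alone (-0.36). None of the 3 passed in PEO-4, at 0.11, 0.04 and -0.15. ATP5MG was higher in both carcinoma lines (0.59 ± 0.12 and 0.99 ± 0.12), and its near-copy ATP5MGL did not exceed 0.150 CPM. The read-through gene ATP5MF-PTCD1, which shares exons with ATP5MF and PTCD1, was at 8.0 to 12.7 CPM in T1074, 1.87 to 3.11 CPM in PEO-4 and 3.13 to 3.95 CPM in SKOV-3, lower in both carcinoma lines (-2.03 ± 0.19 and -1.53 ± 0.19). ATP5PF and ATP5PO passed in no comparison of the main fit. ATP5PF was called higher in PEO-4 without PEO-4 replicate 2 (0.37, adjusted p = 0.0286, with values of up to 0.969 over the refits). In SKOV-3 it was called higher without T1074 replicate 4 (0.35) or PEO-4 replicate 2 (0.32) and with length-scaled TPM counts (0.43).

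ATP5F1C differed between the lines in form as well as in level. The form with 10 exons made up 63.9%, 58.2%, 47.6% and 62.3% of the gene's TPM in the T1074 libraries, 86.0%, 89.5%, 90.5% and 87.7% in the PEO-4 libraries and 23.6%, 33.4%, 26.2% and 37.8% in the SKOV-3 libraries. The form with 9 exons, which lacks the last residue encoded by the other, made up 24.9%, 34.9%, 42.3% and 31.9% in T1074, 1.76%, 0.337%, 1.16% and 1.61% in the PEO-4 libraries and 69.2%, 60.3%, 67.7% and 53.7% in the SKOV-3 libraries. For both forms no library of a line overlapped another line. PEO-4 thus held the 10-exon form almost alone, SKOV-3 mostly the 9-exon form, and T1074 both. Each of the 6 comparisons gave p = 0.0286 in the exact two-sided permutation test of 4 against 4 libraries, the smallest that design allows, and 0.0343 after adjustment over 12 tests. The 2 forms share 1 total and fill most of it, so the tests of one form largely repeat those of the other. Of these 2 forms alone, the 10-exon form was 63.4% ± 7.97 (SD, n = 4) in T1074, 98.6% ± 0.724 in PEO-4 libraries and 32.6% ± 7.30 in SKOV-3 libraries, a ratio chosen after the data were seen. The summed level of the gene was higher in PEO-4 by 0.73 on the log2 scale and in SKOV-3 by 0.98.

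**Figure D4:**
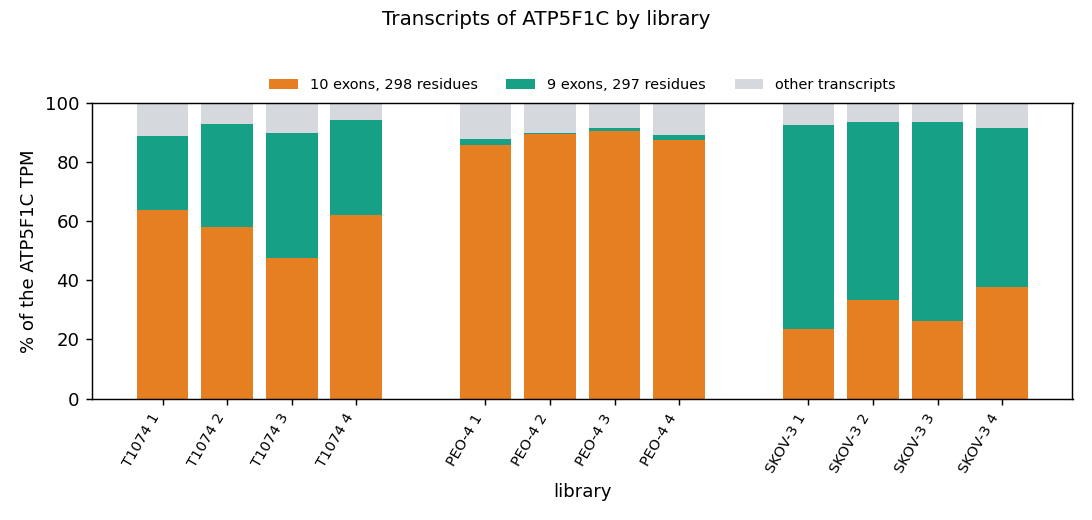
Share of the TPM of ATP5F1C (y axis, percent) taken by the 10-exon form, the 9-exon form and its other transcripts in each of the 12 libraries (x axis). The 9-exon form is 1.76% or less in every PEO-4 library and 53.7% or more in every SKOV-3 library.

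NDUFV3, a complex I subunit with a short and a long form, was examined in the same way, but its 2 leading transcripts by TPM have no coding sequence defined in the annotation, so their shares say nothing of the protein forms. ENST00000460259.1 had a mean of 48.5% of the TPM in T1074, against 33.0% in PEO-4 and 31.3% in SKOV-3, and ENST00000460740.1 had 14.3%, 29.4% and 36.7% (exact permutation p = 0.0286 and adjusted p = 0.0343 for each of these 4 comparisons with T1074). By estimated count, which is not divided by length, the same transcripts had 31.6%, 22.8% and 23.6%, and 3.08%, 6.73% and 9.08%, in T1074, PEO-4 and SKOV-3. Between the carcinoma lines neither TPM share passed, with adjusted p = 0.40 and 0.0623 in the exact permutation test.

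By position, members tended to move with the genes around them. Across the 85 tested members, the log2 fold change of a member and the median of the tested protein-coding genes within 5 Mb of its start had a Spearman rho of 0.61 in PEO-4 against T1074, 0.43 in SKOV-3 against T1074 and 0.57 in PEO-4 against SKOV-3. These are correlations across genes, which share libraries and in part the same neighbours, and are given as a description. No such value was computed for other genes, so the trait is not shown to be particular to the members. The 4 members on chromosome 8 (NDUFB9, CYC1, UQCRB and COX6C) stood out in PEO-4, with log2 fold changes of 1.61 to 3.04. Around CYC1, 80 of 87 neighbouring genes were higher in PEO-4 than in T1074, with a median of 1.89. The neighbours of NDUFB9, COX6C and UQCRB had medians of 1.22, 1.34 and 0.91. Around ATP5ME on chromosome 4, 51 of 60 genes were higher, with a median of 1.45. NDUFA6 on chromosome 22 lay among genes that were lower in PEO-4, 91 of 138, with a median of -0.96. Of all protein-coding genes tested, 33.4% were higher and 43.3% lower in PEO-4 than in T1074. Without the 4 members on chromosome 8, rho was 0.55, 0.40 and 0.52. Over all 85 tested members, the sign was that of the neighbour median in 61, 54 and 61, in the same order of comparisons. Others went against their neighbours, such as ATP5F1D in PEO-4 (0.54 beside -0.95) and UQCRC1 in SKOV-3 (1.05 beside -0.47), both against T1074. In at least 1 comparison, 6 members lay more than 2 on the log2 scale from the median of their neighbours, a distance chosen after the values were seen. In PEO-4 against T1074 these were UQCRHL, COX6B2 and ATP5MF-PTCD1, whose neighbours had medians of -0.62, 0.53 and 0.06, and in SKOV-3 against T1074 they were UQCRH, UQCRHL and COX7B2, with neighbour medians of 0.29, 0.37 and 1.09. Between the carcinoma lines, NDUFA11 joined UQCRH, UQCRHL and COX7B2, beside a neighbour median of -0.55.

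**Figure D5:**
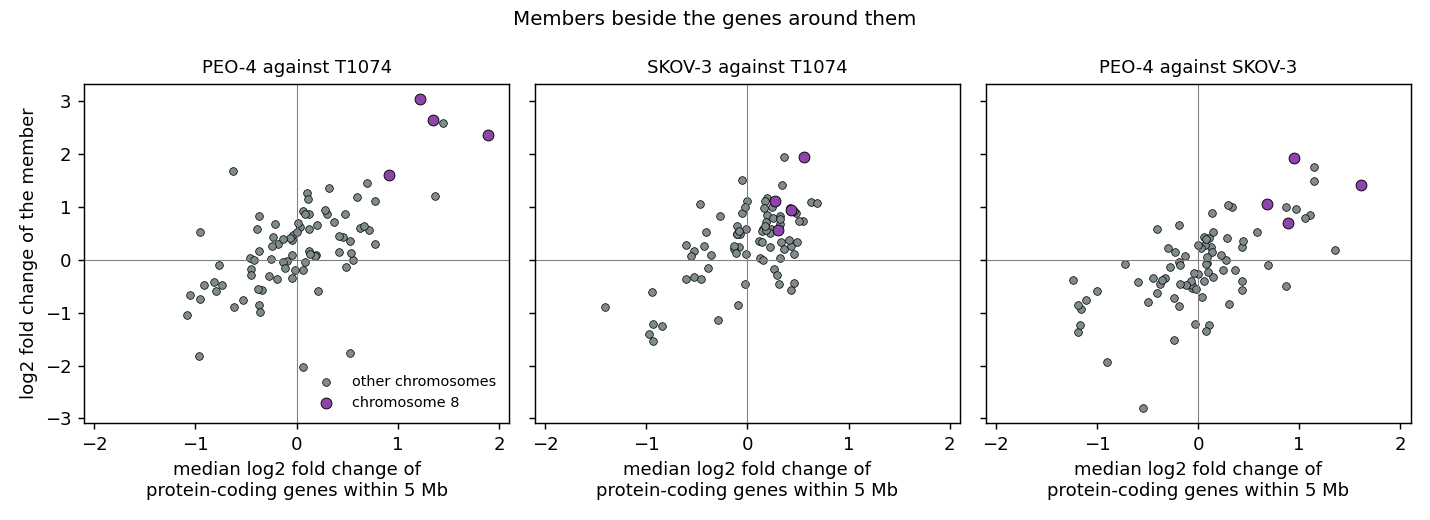
Log2 fold change of each member (y axis) against the median log2 fold change of the tested protein-coding genes that start within 5 Mb (x axis), 1 panel for each comparison, with members on chromosome 8 in purple. UQCRH, UQCRHL and COX7B2 lie beyond the y axis in the SKOV-3 comparisons and are left out there. Points run from lower left to upper right, and the chromosome 8 members are at the upper right in PEO-4 against T1074.

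Promoter windows of 300 bases (250 before and 50 after the start, RefSeq, GRCh38.p14) were at hand for 70 of the 90 members. Core motifs of 3 factors known for respiratory genes were looked for on both strands. The NRF1 core CGCATGCG was in a window of 11 members (15.7%), among them ATP5F1C, ATP5ME and SDHD, against 2.46% of all 27305 symbols with a window, counted in the same way. The ETS motif CCGGAAGT, which GABPA can bind, was found for 12 members (17.1%), UQCRH, ATP5PD and COX5B among them, against 4.95% of all symbols. The YY1 core AAGATGGC was found for 12 members (17.1%), against 3.52%. Matches of different motifs did not overlap in any member window. Of the 31 members higher in both carcinoma lines, 23 had a window, and 3, 5 and 1 of these held the NRF1, ETS and YY1 motif. A gene with several starts counts if any of its windows holds the motif, and a match is a description of letters and not of binding.

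Assembly factors and regulators moved in both directions, as did genes at large. Of all genes tested, 36.3% were higher and 37.8% lower in PEO-4 than in T1074, and 33.3% and 34.5% in SKOV-3. The counts of these short lists are to be read beside those shares. Of 17 assembly factors of complex I, 7 were higher and 6 lower in PEO-4 and 5 higher and 4 lower in SKOV-3, with medians of -0.11 and 0.16 beside 0.08 and 0.27 for the subunits. The largest changes were NDUFAF8 (1.64 ± 0.15 in PEO-4) and NDUFAF3 (-1.39 ± 0.16 in PEO-4). Without T1074 replicate 3, 2 factors in place of 4 were lower in SKOV-3, and without PEO-4 replicate 1 or 2 the PEO-4 median was 0.06 or 0.03. Of 13 assembly factors of complexes II and III, 6 were higher and 4 lower in PEO-4 and 4 higher and 5 lower in SKOV-3. Only 3 were lower in SKOV-3 without T1074 replicate 2 or 3, any single PEO-4 library or SKOV-3 replicate 1, 2 or 3, the call of UQCC3 (-0.42) being among those lost. UQCC6 rose by 1.40 ± 0.12 in PEO-4, and LYRM7, which brings in the Rieske protein of complex III, fell by 1.26 ± 0.12 in SKOV-3. Of 26 assembly factors of complex IV, 11 were higher and 6 lower in PEO-4 and 12 higher and 8 lower in SKOV-3. CMC2 was lower in PEO-4 (-2.18 ± 0.17) and COX10, which makes heme O, lower in SKOV-3 (-1.59 ± 0.14). The PEO-4 median of this list was 0.09, and 0.21 to 0.24 without any single PEO-4 library.

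Of 7 genes listed for complex V, its assembly factors with the inhibitor included, 1 was higher and 4 lower in PEO-4 (all genes 36.3% and 37.8%), with a median of -0.68. In SKOV-3 2 were higher and 1 lower (all genes 33.3% and 34.5%). The SKOV-3 counts became 1 higher without T1074 replicate 1 or 4 or SKOV-3 replicate 3 or 4, and 2 lower without T1074 replicate 4. ATP5IF1, the protein that blocks the synthase when it would run backward, was at 28.7 to 37.2 CPM in T1074, 9.12 to 12.6 CPM in PEO-4 and 35.9 to 38.6 CPM in SKOV-3. Its fall in PEO-4 was 1.69 ± 0.12 on the log2 scale (adjusted p = 1.89e-08). Of 19 genes of electron carriers and ubiquinone synthesis, 4 (21.1%) were higher and 7 (36.8%) lower in PEO-4 and again 4 and 7 in SKOV-3. The same shares of all genes apply. CYCS, cytochrome c, was lower in both lines (-0.88 ± 0.13 and -1.09 ± 0.13), at 111 ± 14.4 CPM in T1074, 60.3 ± 6.08 CPM in PEO-4 and 52.3 ± 8.89 CPM in SKOV-3. COQ10A, which binds ubiquinone, was lower by 3.51 ± 0.24 in PEO-4.

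Regulators of mitochondrial biogenesis went both ways, with 6 of 15 higher and 6 lower in PEO-4 and 5 and 6 in SKOV-3. PPARGC1A, the coactivator PGC-1alpha, was at 0.0497 to 0.160 CPM in T1074, 11.9 to 15.8 CPM in PEO-4 and 7.54 to 9.54 CPM in SKOV-3. The T1074 libraries held 16 counts in all, near the floor, against 2278 in PEO-4 and 1716 in SKOV-3. The ratio to T1074 was 122 in PEO-4 (exact 95% interval 75.1 to 214) and 78.0 in SKOV-3 (47.9 to 137), where the intervals cover counting error only. PPARGC1A passed the filter through the lines where it is high, so its test is not given. ESRRA, a nuclear receptor that works with it, was higher by 1.97 ± 0.19 and 1.08 ± 0.18. NRF1 was lower in PEO-4 (-0.73 ± 0.12) and called lower in SKOV-3 (-0.29 ± 0.12, adjusted p = 0.0473). The second call was lost without any 1 of 9 libraries, among them T1074 replicate 1 (-0.24) and each PEO-4 library (-0.23). It was also lost with another tool, DESeq2 (-0.25), with no filter on low counts (-0.19) and with at least 10 counts required in every library (-0.28). The same held with a replicate block (-0.29) and with the 2 lines alone (-0.30). GABPA was lower in PEO-4 (-0.45 ± 0.12, and -0.30 with the call lost without PEO-4 replicate 1). TFAM, which packs and transcribes mitochondrial DNA, was lower in SKOV-3 (-0.97 ± 0.11) and differed by -0.10 ± 0.10 in PEO-4 (adjusted p = 0.412). POLRMT, the mitochondrial RNA polymerase, was higher in SKOV-3 (2.07 ± 0.15).

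The 13 subunits encoded in mitochondrial DNA took 0.219% to 0.486% of the protein-coding counts of a T1074 library, 0.396% to 0.624% of those of a PEO-4 library and 0.115% to 0.175% of those of a SKOV-3 library. In SKOV-3 against T1074, 11 of 13 were lower, beside 34.5% of all genes. Their median log2 fold change was -1.42, where the nuclear members had a median of 0.49. In PEO-4 against T1074, 3 were higher, beside 36.3% of all genes. Between the carcinoma lines 12 were higher in PEO-4, beside 38.5%. Without T1074 replicate 1, the library of lowest depth and highest rRNA share, 6 in place of 3 were higher in PEO-4 and the SKOV-3 median was -0.99. That rRNA share includes mitochondrial rRNA. In total RNA, fewer mitochondrial genomes and less transcription of each cannot be told apart.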

How the data were processed

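Total RNA of 3 cell lines, 4 libraries each, was depleted of rRNA, made into strand-specific libraries and read as paired ends. The authors used bcl2fastq 2.20.0.422, Trimmomatic 0.39, STAR 2.7.3a and RSEM 1.3.1 on hg38. The estimated count that the authors deposited is RSEM's figure for the fragments of a transcript, not normalized, with shared reads divided. The TPM that the authors deposited divides it by effective length and scales each library to a fixed sum. Counts were summed by gene and rounded. Symbols and GRCh38 coordinates came from GENCODE 44, which matched 61415 of 61533 gene IDs. All 12 libraries entered 1 main fit of edgeR 4.0.16 (quasi-likelihood F-test, filterByExpr by line, TMM) in R 4.3.3. P-values were adjusted by Benjamini and Hochberg over 19898 genes, with a threshold of 0.05. SE came from the log2 fold change and its F statistic. Transcript shares were compared with exact permutation tests in SciPy 1.17.1. The test was also run on simulated counts in which few genes were changed. Such a run does not check the scaling where many genes differ, as here.

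Genes named are the 2 largest rises and falls that passed per complex and comparison, all 2-fold changes, all of complex II, CYC1, paralogue sets and read-through genes. Also named are members that passed in no comparison of the main fit and, per other list, the largest rise and fall, with PPARGC1A, NRF1, GABPA, ESRRA, TFAM, CYCS and ATP5IF1. Of the genes named, 56 are members, and those not described in the text are covered by its counts. Names outside this rule were added as examples after their values were seen. Members and lists were chosen with earlier results of these data known. A label field names protein as the molecule, but the files hold RNA-seq estimates. Of the members, 22 overlap another protein-coding gene on the same strand (NDUFA11, SDHA and UQCR11 among them) and 26 on the opposite strand, so reads there are uncertain. Library totals were 19780836 to 55739060, and replicate pairs differed by more than sampling noise. The values of 1 member are not reported here by name.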

Additional observations from a re-analysis of the deposited data

Results flagged for a closer look

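Of 148 sets of 4 libraries of a line, 1 for each named member and line with at least 10 estimated counts in a library, 10 had a library whose gap to the nearest of the others was above Dixon's 95% limit for 4 values. Chance gives this in about 1 of 20 groups, and groups that share a library are not independent. T1074 replicate 4 was high for NDUFA2 (27.8 CPM against 19.9 to 20.1 in the other 3), NDUFS5 (38.3 against 19.9 to 21.2) and ATP5MC3 (70.2 against 50.6 to 53.2). T1074 replicate 3 was low for ATP5MC2 (57.8 against 86.4 to 89.2), and T1074 replicate 1 for COX6B2 (0.201 against 0.412 to 0.441). PEO-4 replicate 3 was high for COX7B (71.5 against 50.4 to 52.1) and ATP5MK (67.2 against 54.6 to 56.8). PEO-4 replicate 2 was low for ATP5PF (16.5 against 21.5 to 22.1) and high for NDUFA3 (16.1 against 14.9 to 15.0). SKOV-3 replicate 3 was high for ATP5MJ (60.3 against 51.9 to 53.2).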

How the results depend on the processing

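Fits with other scalings, filters and tools, of 2 lines only, of length-scaled TPM counts, with pseudogene counts added and without each library were compared with the fit described. Of 113 calls of named members, 91 stood in every fit and 22 were lost in at least 1; of 94 calls of other listed genes, 82 stood. Leaving out each library in turn gave 40 to 45 members higher and 14 to 23 lower in PEO-4 than in T1074, 45 to 53 and 14 to 17 in SKOV-3 than in T1074, and 22 to 29 and 27 to 39 in PEO-4 than in SKOV-3. With only the 8 libraries of the pair, 13 members were lower in PEO-4 than in T1074. Requiring a change of 2-fold or more left, in the same order, 13 and 4, 13 and 7, and 10 and 9. The replicate numbers did not pair the libraries, since deviations of same-numbered libraries correlated at -0.079 to 0.069, and the fit with a replicate block gave 42 and 19, 48 and 16, and 26 and 34. Scaling by library size only moved the median of all genes by -0.16 and -0.20 against T1074 and gave 32 and 23 members in PEO-4 and 38 and 19 in SKOV-3. Scaling on protein-coding genes moved it by 0.11 and 0.14 in PEO-4 against T1074 and SKOV-3. The median over members in PEO-4 against SKOV-3, -0.10, turned to 0.0399 under protein-coding scaling and 0.0313 when at least 10 counts were required in every library. That of complex III in this comparison, -0.12, turned to 0.0238 under protein-coding scaling, and that of complex II in SKOV-3 against T1074, 0.14, to -0.0549 under scaling by library size only. The causes were not tested. Leaving out the read-through genes, an alternative chosen after the data were seen, gave 41 and 19, 46 and 15, and 26 and 34. Shares of ATP5F1C and NDUFV3 transcripts kept their direction under counts in place of TPM where they passed, and with 3 against 4 libraries no p can be below 0.0571. Genes under about 0.15 CPM are limited by depth.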
